A study of Macaca mulatta with 4 samples.

Results

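The genes described are those of the alpha subunits of heterotrimeric G proteins in RF/6A cells, an established line of Macaca mulatta (rhesus macaque) of chorioretinal origin. Of 10 listed genes, 9 had a row among the 21314 gene rows of the table: GNAT1, GNAT2, GNAI1, GNAI3, GNAZ, GNAS, GNA11, GNA12 and GNA13. GNAQ had none under its current Ensembl identifier and was not analysed here. The genes were chosen by symbol because GNAT1, the subunit of rod photoreceptors, had been seen at a high level beside few other rod transcripts, so its level and those of its relatives are given as a description and carry no test.

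The study sequenced total RNA from 4 libraries of RF/6A cells to ask which cell type the line resembles. All 4 are titled static and were grown alike in Dulbecco's medium with antibiotics and heat-inactivated serum (fetal bovine), which made up 10%, at 37 °C in 5% CO2. They form 1 group of 1 cell line bought as 1 lot, and neither a treated group nor another cell type was analysed here. Nothing in the labels says that the libraries came from separate cultures, so SDs describe the spread between these 4 samples, which may be technical.

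The libraries held between 20366946 and 20550610 estimated counts. Levels are in CPM, the counts of a gene in 1000000 counts of its library, after TMM scaling (a trimmed mean of log ratios between libraries). A gene was called expressed where no library fell under 1 CPM. Library 2 stood apart. The common biological coefficient of variation was 44.9% over 4 libraries and 13.6% without it, and by Dixon's gap test it lay apart from the other 3 in 33.1% of the 12453 genes that averaged 1 CPM or more (highest in 21.8%, lowest in 11.2%). Of the cell type markers, 9 of 9 fibroblast and mesenchymal, 2 of 9 endothelial, 4 of 6 retinal pigment epithelium, 2 of 18 rod and 1 of 8 cone genes were expressed, against 52.9% of all rows and 64.2% of rows with a symbol. The label of chorioretinal cells names no single cell type, and the defining rod markers with a row were below 1 CPM in every library.

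Heterotrimeric G proteins carry signals from receptors that span the membrane to enzymes and channels inside the cell. The alpha subunit binds GDP at rest, exchanges it for GTP when a receptor is activated, parts from the beta and gamma subunits, and returns to rest when it hydrolyses the GTP. Alpha subunits fall into classes by what they act on. Gs stimulates adenylyl cyclase and Gi inhibits it, Gq activates phospholipase C beta, G12 and G13 act on the actin cytoskeleton through guanine nucleotide exchange factors, and the transducins, close relatives of Gi, activate the cyclic GMP phosphodiesterase of photoreceptors.

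Of the 9 alpha subunit genes, 7 were expressed (GNAT1, GNAI1, GNAI3, GNAS, GNA11, GNA12 and GNA13), and the same number was expressed when library 2 was left out, against 56.4% of all rows then. GNAT2 lay near the threshold and GNAZ near 0. The 7 of 9 (77.8%) stand beside 52.9% of all rows and 64.2% of rows with a symbol. The median over the 9 of the mean level was 71.8 CPM, against 3.61 CPM over all rows and 10.5 CPM over rows with a symbol. These genes were not picked at random from the table, and most G protein classes are present in nearly all cells.

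GNAT1 (ENSMMUG00000020116) encodes the alpha subunit of rod transducin, which activates the rod phosphodiesterase. The row bears this name in the table of current symbols, but the annotation release behind the counts is not given in the sources used here. Whether the row counted GNAT1, its chromosomal neighbour GNAI2 or both was not tested, so each GNAT1 value here is the value of that row. Its estimated counts were 3832, 3875, 3998 and 4249 in libraries 1 to 4. After scaling these were 174, 239, 180 and 192 CPM, a mean of 196 ± 29.5 CPM (SD, n = 4). Library 2 was the highest under TMM scaling, at 1.31 times the mean of the others, and did not overlap them. With plain CPM library 2 lay inside the range of the others. Means without library 2 are given, here and below, after TMM was run again on libraries 1, 3 and 4, which raises their CPM. For GNAT1 that mean was 197 ± 9.95 CPM (n = 3), against 182 CPM for the same libraries on the scaling of all 4. The GNAT1 coefficient of variation was 15.0%, against a median of 35.1% over genes of at least 1 CPM. Without library 2 it was 5.06%, against a median of 8.84%.

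GNAT2 (ENSMMUG00000005819), the alpha subunit of cone transducin, had 24, 17, 16 and 17 counts in libraries 1 to 4. Its level was 1.09 and 1.05 CPM in libraries 1 and 2 and 0.719 and 0.769 CPM in libraries 3 and 4, a mean of 0.907 ± 0.19 CPM (SD, n = 4). The exact 95% Poisson limits on its summed counts were 0.704 and 1.13 CPM, so at this depth the gene cannot be placed on one side of 1 CPM. These limits, like all intervals given here, cover counting error only.

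GNAI1 (ENSMMUG00000023470) and GNAI3 (ENSMMUG00000005818) encode inhibitory subunits that lower cyclic AMP. GNAI1 measured 59.5, 21.1, 61.4 and 55.9 CPM in libraries 1 to 4. Of the 7 expressed genes, it alone had library 2 apart from the other 3 by Dixon's gap test, which held for 33.1% of genes of at least 1 CPM. GNAI3 measured 81.3, 41.2, 88.3 and 76.5 CPM. In both genes library 2 was the lowest and did not overlap the others. A gene can miss the gap test and still differ in library 2, as GNA12 did, at 0.154 times the mean of the others. The means were 49.5 ± 19.1 CPM for GNAI1 and 71.8 ± 21.0 CPM for GNAI3 (SD, n = 4), and 63.7 ± 2.95 and 88.6 ± 6.29 CPM without library 2 (n = 3). GNAZ, an inhibitory subunit known mainly from neurons and platelets, had 2 counts in library 2 and none in the others, with an upper limit of 0.0875 CPM over the 4 libraries.

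GNAS (ENSMMUG00000010266) encodes the stimulatory subunit that activates adenylyl cyclase. Its locus is imprinted and makes further transcripts from other promoters, which a count per gene does not separate. GNAS measured 1150, 2631, 1235 and 1464 CPM in libraries 1 to 4, a mean of 1620.0 ± 687 CPM (SD, n = 4). Library 2 was the highest, and the mean without it was 1386 ± 176 CPM (n = 3).

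GNA11 (ENSMMUG00000002961), the one Gq class member with a row among the listed genes, measured 50.1, 45.8, 46.3 and 49.2 CPM in libraries 1 to 4. Its mean of 47.8 ± 2.14 CPM (SD, n = 4) had a coefficient of variation of 4.47%, and 1.78% of genes of at least 1 CPM varied less. This evenness depended on the scaling. With plain CPM, library 2 measured 36.3 CPM against 50.2 to 54.1 CPM in the other libraries.

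GNA12 (ENSMMUG00000006460) and GNA13 (ENSMMUG00000016371) encode the subunits that act on the actin cytoskeleton. GNA12 measured 150.0, 18.7, 111 and 102 CPM in libraries 1 to 4, and GNA13 measured 121, 45.9, 121 and 99.6 CPM. Library 2 was the lowest in both, and for GNA12 it was 0.154 times the mean of the other 3, the widest gap among the expressed alpha subunit genes. The means of 95.5 ± 55.2 and 97.0 ± 35.6 CPM (SD, n = 4) became 131 ± 27.6 and 123 ± 13.5 CPM without library 2 (n = 3). GNA12 also varied among libraries 1, 3 and 4, with a coefficient of variation of 21.1%, above that of 85.3% of genes.

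**Figure D1:**
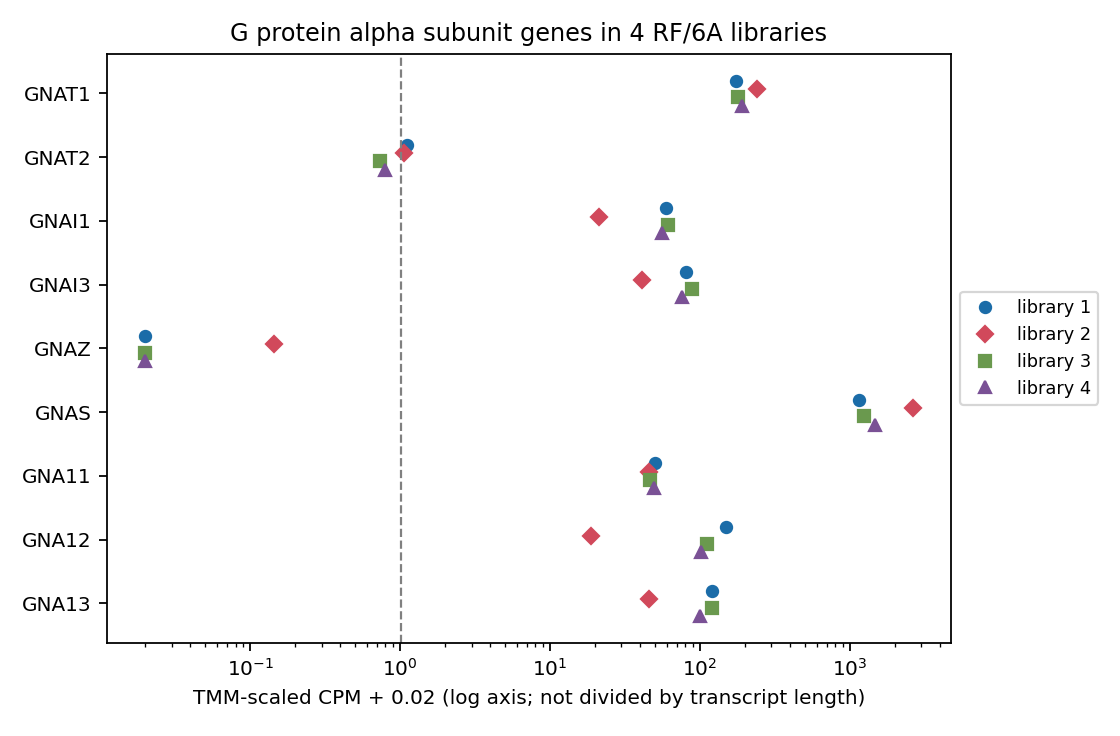
Points show the level of each alpha subunit gene by library, in TMM-scaled CPM + 0.02 on a log axis, with a dashed line at 1 CPM. GNAT1 lies between 174 and 239 CPM, GNAT2 near the line, and library 2 lies left of the others for GNAI1, GNAI3, GNA12 and GNA13.

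In order of mean CPM the genes were GNAS, GNAT1, GNA13, GNA12, GNAI3, GNAI1, GNA11, GNAT2 and GNAZ. No transcript lengths were used here, so this is an order of estimated counts, which longer transcripts raise, and not of molecules. The libraries of GNAS lay above all of GNAT1, and those of GNAT1 above all of GNA13. Neighbours from GNA13 to GNA11 overlapped over the 4 libraries. GNA13 was above GNA12 in 2 of 4 libraries. Without library 2 the mean of GNA12 was the higher, at 131 CPM against 123 CPM for GNA13. In libraries 1, 3 and 4 alone only GNA13 and GNA12 overlapped, and GNAI3 was above GNAI1 in 4 of 4 libraries, whereas GNA12 was above GNAI3 and GNAI1 above GNA11 in 3 of 4, library 2 being the exception. GNAT2 and GNAZ each lay below all libraries of the gene before.

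In estimated counts, GNAT1 made up 9.75%, 7.85%, 9.74% and 9.42% of the summed counts of the 9 genes in libraries 1 to 4. The exact binomial 95% limits were 9.46% and 10.05% for library 1, 7.62% and 8.09% for library 2, 9.46% and 10.03% for library 3, and 9.15% and 9.69% for library 4. GNAS held 86.4% in library 2 and between 64.3% and 71.8% in the others, and the G12 and G13 genes held 2.12% in library 2 and between 9.89% and 15.2% in the others. Within the Gi and transducin genes, GNAT1 had 79.02% of the counts in library 2 and between 54.4% and 59.1% in the others. No row carries the current identifier of GNAI2 or GNAQ, so the shares are of the rows named above only.

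The ratio of GNAT1 to a relative does not depend on depth scaling. A transcript length that is the same in every library cancels from the change of this ratio between libraries. Whether isoform use or coverage along transcripts differed between libraries was not tested. Against GNAI3 the count ratio was 5.80 in library 2 and between 2.04 and 2.51 in the others. Against GNAI1 it was 11.3 in library 2 and between 2.93 and 3.44 in the others. GNAT1 and its Gi relatives therefore did not keep 1 ratio across the 4 libraries. Against GNAT2 the ratio was 228 in library 2 and between 160 and 250 in the others, with at most 24 GNAT2 counts behind each value.

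The named genes whose profile over the 4 libraries lay nearest to that of GNAT1 were CRTAP, which encodes a cartilage-associated protein of procollagen modification, CTSL, the lysosomal protease cathepsin L, and RPN1, a subunit of the oligosaccharyltransferase. CRTAP measured 230, 312, 236 and 253 CPM in libraries 1 to 4. Their root mean square differences from GNAT1 in centred log2(CPM + 0.5) were 0.00706, 0.00712 and 0.00783, and 6.82% of the 10198 named genes of at least 1 CPM lay within 0.1. The measure is a description over 4 libraries, 1 of which stands apart. On the same measure GNA11 lay at 0.22, GNAS at 0.29, GNAI3 at 0.61, GNA13 at 0.75, GNAI1 at 0.81 and GNA12 at 1.34.

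Scaling bears on every statement about library 2. Over genes of at least 1 CPM, library 2 had a median log2 ratio of -0.075 with TMM and -0.50 with plain CPM against the mean of the other 3. GNAT1 was at 0.39 with TMM and -0.052 with plain CPM, above the median of all genes under both. GNAI1, GNAI3, GNA12 and GNA13 were lower in library 2 and GNAS higher under both, from -2.66 for GNA12 to 1.04 for GNAS with TMM. GNA11 was at -0.083 with TMM and -0.52 with plain CPM, near the median both times. Library 2 also differed in the markers of other cell types. The summed level of the 9 fibroblast and mesenchymal markers was 46212 CPM in library 2 and 40794 to 42504 CPM in the others with TMM, but 36666 CPM in library 2 and 44277 to 45733 CPM in the others with plain CPM. Its genes went opposite ways under both scalings. With TMM, FN1, which encodes fibronectin, measured 3228 CPM in library 2 and 12620 to 14908 CPM in the others, and the collagen gene COL1A1 measured 16445 CPM in library 2 and 8427 to 9600.0 CPM in the others. The 6 retinal pigment epithelium markers (OTX2 at 0) summed to 219 CPM in library 2 and 76.3 to 81.3 CPM in the others, and RDH5, a retinol dehydrogenase, made up 211 CPM of the sum in library 2. BEST1, a chloride channel, went the other way, with 1.48 CPM in library 2 and 15.1 to 29.8 CPM in the others. The 9 endothelial markers (ROBO4 at 0) summed to 24.4 CPM in library 2 and 12.4 to 17.2 CPM in the others, of which EGFL7, a secreted vascular protein, held 19.9 CPM in library 2. KDR, which encodes a VEGF receptor, was lowest in library 2, at 0.432 CPM against 1.49 to 2.50 CPM. None of these 3 lists was therefore higher or lower as a whole in library 2. The 18 rod genes summed to 10.7 CPM in library 2 and 6.74 to 10.5 CPM in the others with TMM, and to 8.52 CPM in library 2, inside the range of the others, with plain CPM. The part of these markers in the alpha subunit values was not tested, and in bulk RNA fewer cells of a type and less RNA per cell cannot be told apart.

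**Figure D2:**
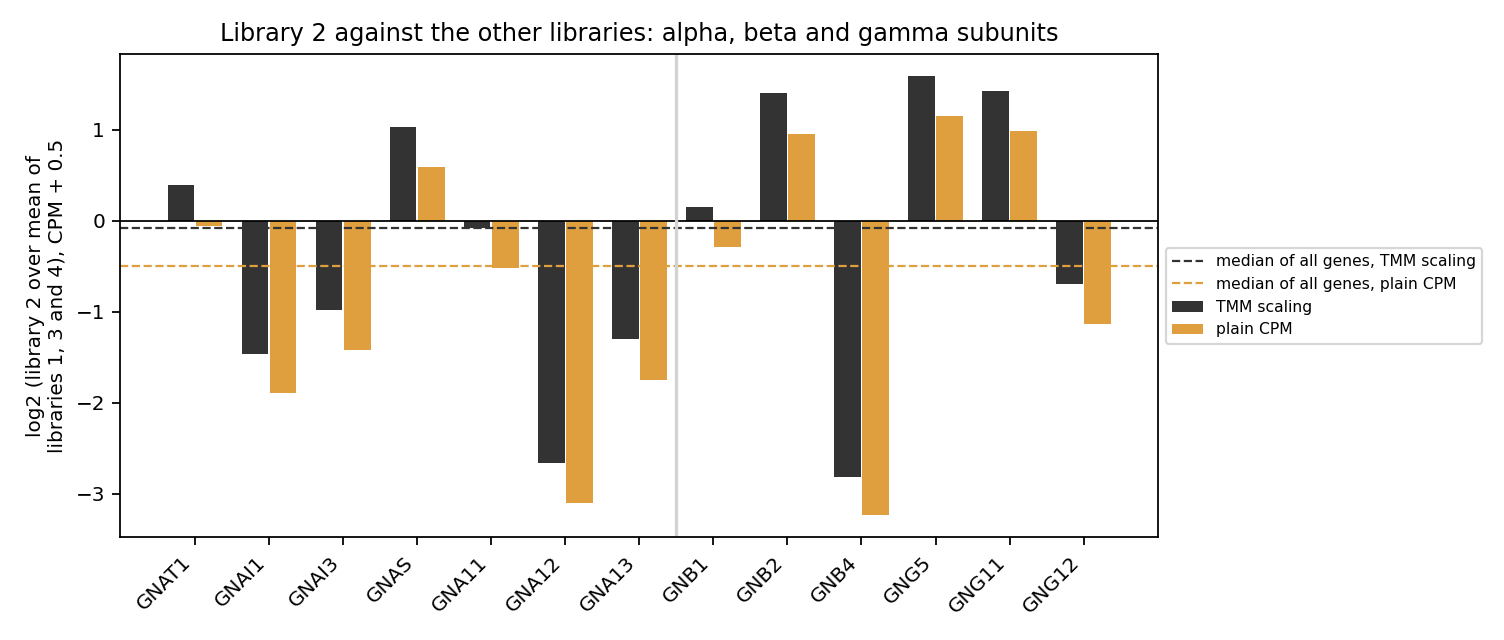
Bars give the log2 ratio of library 2 to the mean of libraries 1, 3 and 4 in CPM + 0.5 for the expressed alpha subunit genes (left of the grey line) and for beta and gamma subunit genes (right of it), with TMM scaling and plain CPM. Dashed lines are the medians of all genes of at least 1 CPM, -0.075 and -0.50, and GNAT1 is at 0.39 and -0.052.

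Rod transducin works in a cascade whose other parts are made in rods, and most of these genes were below 1 CPM in every library. Of 18 rod genes with a row, GNAT1 not included, 2 were expressed (SLC24A1 and ABCA4), against 52.9% of all rows. Another 14 were below 1 CPM in every library, 7 of them with no count at all, and GUCA1B and RGS9 reached 1 CPM in some libraries. Without library 2 the number expressed was 3, with RGS9 added. The median over the 18 genes of the mean level was 0.132 CPM, against 3.61 CPM over all rows.

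PDE6B and PDE6G, subunits of the phosphodiesterase that GNAT1 activates, and GNGT1, the gamma subunit of rod transducin, had no count in any library. A count of 0 allows up to 0.0363 CPM (3 counts over the 4 libraries). PDE6A, the other catalytic subunit, had 14, 16, 19 and 13 counts in libraries 1 to 4, a mean of 0.766 ± 0.187 CPM (SD, n = 4). CNGA1, a subunit of the rod channel that cyclic GMP opens, had 7, 9, 6 and 8 counts, or 0.376 ± 0.125 CPM. SAG, the rod arrestin, had 1, 1, 5 and 5 counts, and NRL, the transcription factor that sets rod identity, had 5, 0, 5 and 1. The rod genes with the most counts were SLC24A1, ABCA4 and RGS9. SLC24A1, a sodium, potassium and calcium exchanger, measured 3.37 ± 0.753 CPM, ABCA4, a transporter of retinoids, 1.86 ± 0.514 CPM, and RGS9, which speeds GTP hydrolysis by transducin, 1.57 ± 0.853 CPM with 2.84 CPM in library 2 and 0.995 to 1.26 CPM in the others.

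**Figure D3:**
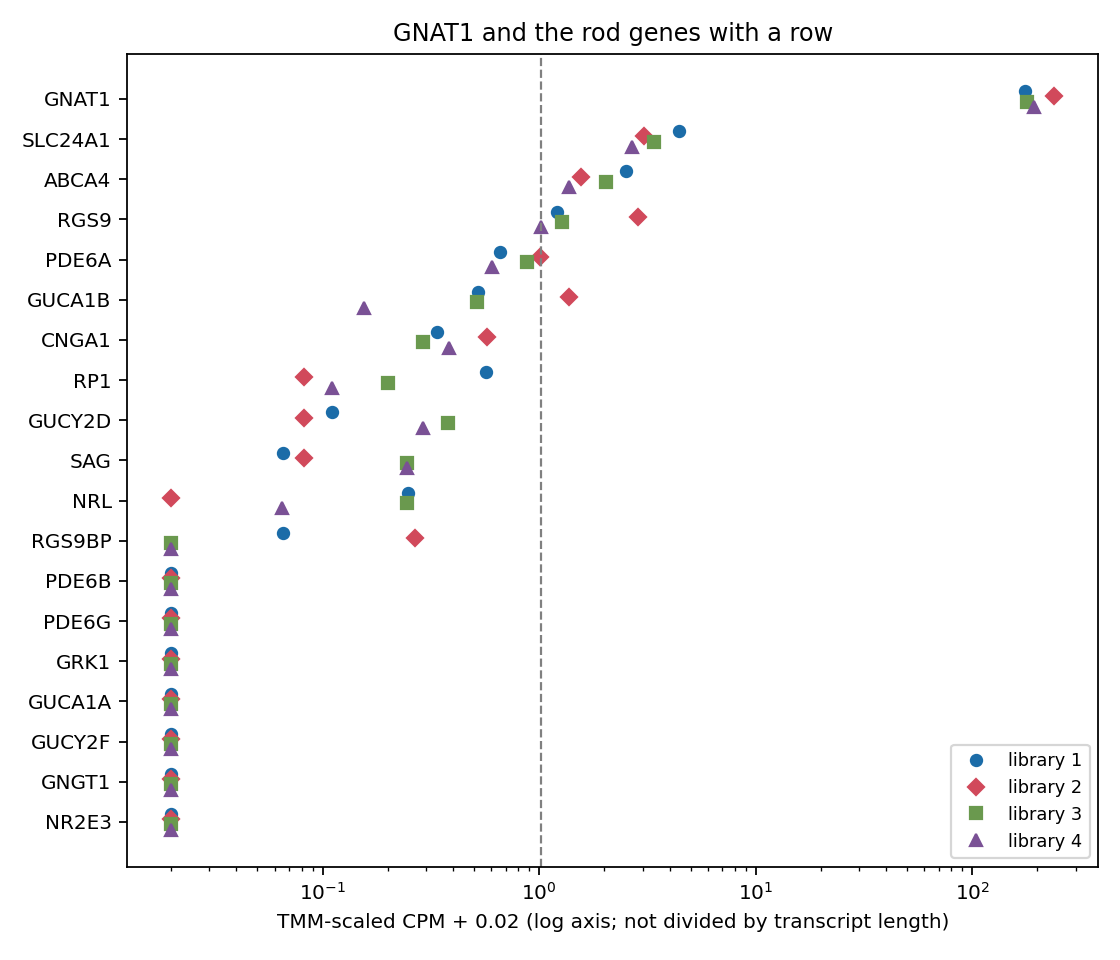
Each point is the level of GNAT1 or of 1 of 18 other rod genes in 1 library, in TMM-scaled CPM + 0.02 on a log axis, with a dashed line at 1 CPM. GNAT1 lies between 174 and 239 CPM, no other rod gene passes 4.41 CPM, and the 7 genes at the left edge have no count.

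Rod genes without a row, among them CRX, PRPH2 and PDC, were not analysed here. Unlike GNAT1 beside the rod genes, GNAT2 was itself low, at 0.907 CPM. Of 8 cone genes with a row, 1 was expressed, against 52.9% of all rows. That gene was GNB3, the beta subunit of cone transducin, which is also made outside cones. It measured 16.7, 27.6, 13.2 and 10.8 CPM in libraries 1 to 4, a mean of 17.1 ± 7.40 CPM (SD, n = 4). The cone phosphodiesterase PDE6C had 2, 1, 1 and 8 counts, the cone arrestin ARR3 had 0, 1, 4 and 4, and GRK7, a cone opsin kinase, had 6, 9, 12 and 9. CNGB3, a subunit of the cone channel, had 34 counts in library 3, 1 in library 4 and none in libraries 1 and 2.

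GNAI2, the Gi subunit found in most cells, lies close to GNAT1 on the chromosome. In the order of protein-coding genes that RefSeq gives for the T2T-MMU8v2.0 assembly, SEMA3F comes before GNAT1, and SLC38A3, GNAI2 and SEMA3B follow it. GNAI2 carries the identifier ENSMMUG00000056280 in the table of current names and matched no row. The genes on both sides of GNAT1 were not expressed. SEMA3F, a secreted guidance protein, had 15, 18, 23 and 21 counts in libraries 1 to 4, or 0.944 ± 0.186 CPM (SD, n = 4), near the 1 CPM threshold. SLC38A3, an amino acid transporter, had 2, 2, 0 and 0 counts, near 0.

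Beyond the place of GNAI2, SEMA3B, another guidance protein, measured 4.07 ± 1.01 CPM (SD, n = 4), IFRD2 45.8 ± 18.6 CPM, and the hyaluronidase genes HYAL3, HYAL1 and HYAL2 measured 7.34 ± 3.44, 42.3 ± 19.05 and 13.97 ± 3.65 CPM. NAA80, which acetylates actin, measured 11.96 ± 9.85 CPM, with 26.7 CPM in library 2. The row paired with GNAT1 has the identifier ENSMMUG00000020116, SEMA3B has ENSMMUG00000020117 and IFRD2 has ENSMMUG00000020119, whereas SEMA3F and SLC38A3, the coding genes beside GNAT1, have ENSMMUG00000010337 and ENSMMUG00000010342. The number of the row named GNAT1 thus lies next to those of SEMA3B and IFRD2, on the far side of GNAI2. Whether the release used for counting gave this identifier to GNAI2, or counted reads of GNAI2 in it, was not tested. In the same RefSeq order a long non-coding RNA gene overlaps GNAT1, and the strand setting of the counting is not given either. GNAT2 and GNAI3 are neighbours there too, and each has a row, with at most 24 counts for GNAT2 and at least 668 for GNAI3 in any library.

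**Figure D4:**
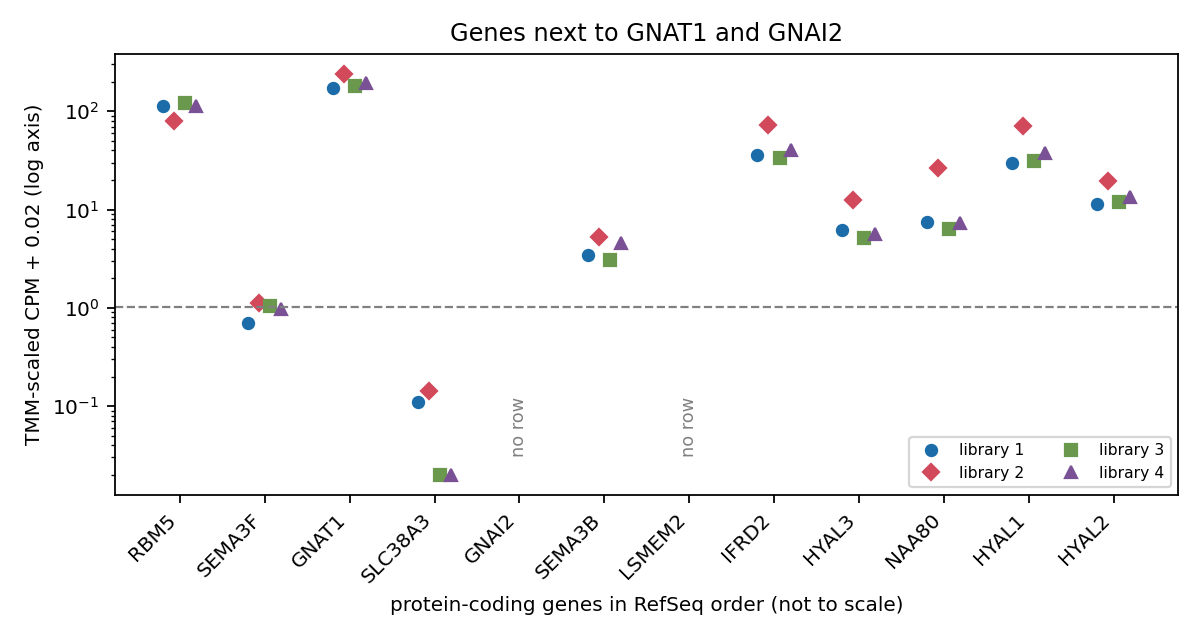
Points give the level of each protein-coding gene from RBM5 to HYAL2 in each library, in TMM-scaled CPM + 0.02 on a log axis, in RefSeq's order and not to scale, with a dashed line at 1 CPM. GNAT1 lies between 174 and 239 CPM beside SEMA3F and SLC38A3, which do not pass 1.11 CPM, and GNAI2 and LSMEM2 have no row.

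Other alpha subunit genes with a row were low. GNA14 and GNA15, Gq class subunits of restricted expression, measured 0.767 ± 0.329 and 0.445 ± 0.212 CPM (SD, n = 4), and GNAO1, the subunit abundant in neurons, had 3, 2, 0 and 0 counts in libraries 1 to 4. None of the 3 was expressed, against 52.9% of all rows and 64.2% of rows with a symbol. GNA14 lay near the threshold, with 1.09 CPM in library 1 and 0.308 CPM in library 2. The exact Poisson limits on its summed counts were 0.618 and 1.02 CPM. At this depth its level over the 4 libraries therefore cannot be placed on one side of 1 CPM. GNAT3, the taste subunit, and GNAL, the olfactory one, matched no row and were not analysed here.

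The partners of the alpha subunits were mostly present. Over lists of other alpha, beta and gamma subunits, folding and lipid-modifying proteins, effectors and regulators, 46 of 65 genes with a row were expressed (70.8%), next to 64.2% of rows with a symbol, so the share over all of them is close to that background. All 5 beta subunit genes were expressed. GNB1 measured 141, 164, 141 and 160 CPM in libraries 1 to 4, a mean of 152 ± 12.3 CPM (SD, n = 4), and the libraries differed little. GNB2 measured 69.7, 191, 63.7 and 82.1 CPM, and GNB4 measured 59.4, 6.91, 56.5 and 39.5 CPM, so library 2 was the highest for GNB2 and the lowest for GNB4 under both scalings.

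Gamma subunit genes, which anchor the beta and gamma pair in the membrane, were expressed in 4 of 7 cases. This share of 57.1% stands beside 52.9% of all rows and 64.2% of rows with a symbol. GNG11 measured 161, 435, 160 and 163 CPM in libraries 1 to 4, a mean of 230 ± 137 CPM and 174 ± 1.66 CPM without library 2. GNG5 measured 34.7, 106, 31.3 and 38.4 CPM, and GNG12 measured 127, 80.8, 137 and 130 CPM. Library 2 was the highest for GNG11 and GNG5 and the lowest for GNG12, without overlap in each. GNG13 and GNGT1, gamma subunits of taste and rod cells, had no count.

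Alpha subunits are folded with the help of chaperones and then carry lipids that hold them at the membrane. All 10 genes of that list with a row were expressed, beside 64.2% of rows with a symbol. CCT2, a subunit of the chaperonin that folds beta subunits, measured 416 ± 39.2 CPM (SD, n = 4). ZDHHC3, a palmitoyl transferase, measured 144 ± 14.0 CPM, and NMT1, which adds myristate to Gi and transducin subunits, measured 137 ± 23.7 CPM with 172 CPM in library 2.

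Among effectors, 5 of 9 adenylyl cyclase genes, 6 of 7 Gq effector genes and 4 of 4 G12 and G13 effector genes were expressed. These shares of 55.6%, 85.7% and 100% stand beside 52.9% of all rows and 64.2% of rows with a symbol. ADCY6, ADCY9 and ADCY3 led the cyclases, at 70.9 ± 10.1, 63.2 ± 8.07 and 20.2 ± 2.61 CPM (SD, n = 4), and ADCY2 and ADCY8 had no count. Of the phospholipase C beta genes, PLCB3 measured 90.6 ± 24.3 CPM, PLCB1 68.6 ± 42.1 CPM and PLCB4 42.5 ± 13.2 CPM. PLCB1 had 8.95 CPM in library 2 and 70.9 to 104 CPM in the others, and 95.6 ± 18.0 CPM without library 2 (n = 3).

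Downstream of G12 and G13, RHOA, a small GTPase, measured 706 ± 172 CPM (SD, n = 4), and the exchange factors ARHGEF12 and ARHGEF1 measured 196 ± 93.4 and 55.5 ± 18.8 CPM. ARHGEF12 had 61.3 CPM in library 2 and 205 to 265 CPM in the others, on the same side as GNA12 and GNA13, whereas ARHGEF1 was highest in library 2, at 83.7 CPM against 45.2 to 47.1 CPM. Of 20 regulators with a row, 12 were expressed (14 without library 2). The 12 make up 60%, beside 52.9% of all rows and 64.2% of rows with a symbol. CCDC88A, a regulator of Gi subunits also called girdin, measured 72.7 ± 42.6 CPM with 17.03 CPM in library 2. GPSM2, which binds Gi subunits at the spindle, measured 33.7 ± 11.2 CPM, and RGS10, which speeds GTP hydrolysis by Gi, measured 20.9 ± 16.2 CPM, of which library 2 had 45.2 CPM, and averaged 13.8 ± 1.24 CPM over the other 3 libraries scaled again (n = 3).

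**Figure D5:**
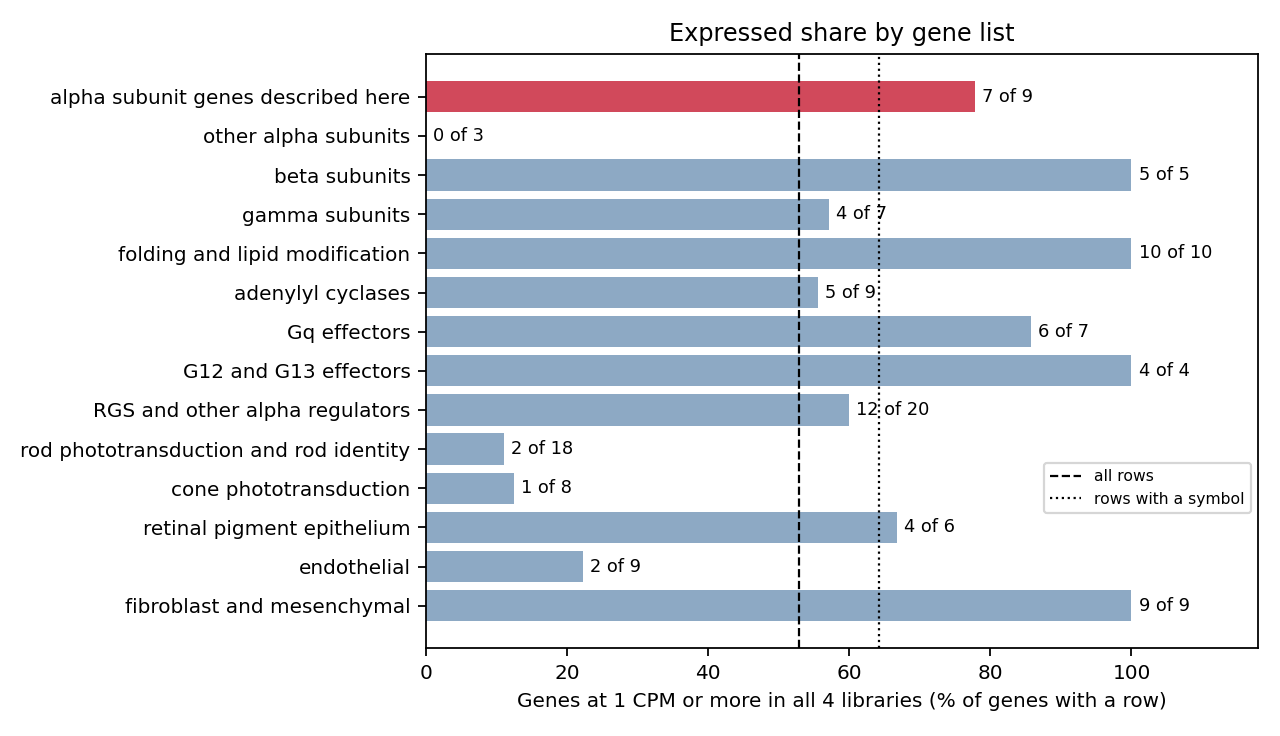
Bars give the share of genes with a row that reached 1 CPM in all 4 libraries, for the 9 alpha subunit genes and the lists of partners and cell type markers, with the counts beside each bar. Lines mark the share over all rows (52.9%) and over rows with a symbol (64.2%), and the rod (2 of 18) and cone (1 of 8) lists lie left of both.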

How the data were processed

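Total RNA of 4 RF/6A libraries was measured by RNA sequencing. The authors deposited estimated counts per Ensembl rhesus gene, rounded to whole numbers; per the submitters' processing notes Salmon and DESeq2 were used, with no version or role given. The genome build, annotation release and strand setting were not given in the sources used here. Reads that match several transcripts are divided among them by estimation, so counts of close relatives carry an assignment error that no interval covers. Of 21314 rows, 14654 were paired with a current symbol. The 6660 rows without one held 13.9%, 21.7%, 13.1% and 13.6% of the counts in libraries 1 to 4, so library 2 had the largest share.

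Counts were scaled with TMM in edgeR 4.0.16 (R 4.3.3) over the 17534 rows with a count and given as CPM, not divided by length. Library ratios used log2(CPM + 0.5). Poisson and binomial limits are exact, at 95%. Dixon's gap test used the critical value 0.829. Library pairs differed by a chi-square of 12.3 to 495 per degree of freedom, so none was a copy. The code was tested on simulated data. Alternatives were plain CPM, DESeq2 1.42.0 size factors, filterByExpr (minimum count 10), thresholds of 0.5 and 2 CPM and leaving out each library. With a library left out, TMM was run again on those that remained. The members and lists were chosen with earlier results of these data known. Named genes were all members, the other alpha subunits, the 3 highest of each list, the defining rod and cone genes, the genes around GNAT1 and the 3 of nearest profile. ADCY2, ADCY8 and GUCA1B fall outside that rule, as do GNG13, OTX2 and ROBO4, and were picked with their values known.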

Additional observations from a re-analysis of the deposited data

Results flagged for a closer look

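Dixon's gap test was run on 82 values, 69 named genes and 13 shares, and 19 of them had a library standing apart, while about 1 in 20 would by chance. In 16 it was library 2, highest in 14 and lowest in 2, and these values share a library and are not independent. The sides depend on the scaling. Over the 69 genes, library 2 lay apart in 15 with TMM (13 high, 2 low) and in 12 with plain CPM (7 high, 5 low), 9 of them on the same side in both. With plain CPM it no longer lay apart for GNB2, NMT1, PLCB3, RGS9, COL1A1 and HYAL3, and it lay apart and low for ADCY6, RBM5 and GNG12. Library 1 then lay apart and high for GNAT2. The values that follow are with TMM. Over all genes of at least 1 CPM, library 2 lay apart in 33.1%, highest in 21.8% and lowest in 11.2%.

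Library 2 was low for GNAI1 (21.1 CPM against 55.9 to 61.4 CPM) and for GPSM2 (16.96 CPM against 38.5 to 39.9 CPM). Among subunit genes it was high for GNB2 (191 CPM against 63.7 to 82.1 CPM), GNG11 (435 CPM against 160 to 163 CPM) and GNG5 (106 CPM against 31.3 to 38.4 CPM). The GNAZ value of library 2 (0.123 CPM, or 0.00405% of the counts of the 9 alpha subunit genes) rests on 2 counts. Among modifiers, effectors and regulators, library 2 was high for NMT1 (172 CPM against 124 to 126 CPM), PLCB3 (127 CPM against 75.5 to 84.2 CPM), ARHGEF1 (83.7 CPM against 45.2 to 47.1 CPM), RGS10 (45.2 CPM against 11.5 to 13.5 CPM) and RGS9 (2.84 CPM against 0.995 to 1.26 CPM).

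Among markers and genes near GNAT1, library 2 was high for RDH5 (211 CPM against 45.3 to 58.3 CPM), COL1A1 (16445 CPM against 8427 to 9600.0 CPM), HYAL3 (12.5 CPM against 5.08 to 6.19 CPM) and NAA80 (26.7 CPM against 6.38 to 7.46 CPM). CNGB3 was high in library 3 (1.53 CPM against 0 to 0.0452 CPM), from 34 counts. PDE6C was high in library 4 (0.362 CPM against 0.0449 to 0.091 CPM), from 8 counts. The share of GNAT2 in the alpha subunit counts was high in library 1 (0.0611% against 0.0345% to 0.039%), from 24 counts. GNAT1 itself had no library apart by this test.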

How the results depend on the processing

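No paired analysis was possible because the libraries form 1 group. The GNAT1 level of 196 CPM moved by less than its SD with plain CPM (195 CPM), DESeq2 size factors (196 CPM), filterByExpr (196 CPM) and each library left out (193 to 199 CPM), and its share of alpha subunit counts lay between 9.01% and 9.64% with a library left out. The number of expressed alpha subunit genes was 7 under every scaling and omission and at 2 CPM, and 8 at 0.5 CPM. The number of expressed rod genes was 4 at 0.5 CPM and 1 at 2 CPM, in place of 2, and 2 to 3 with a library left out. Partner genes expressed were between 44 and 48. Of the remaining values, the GNA11 level and the retinal pigment epithelium count were marked as moved. For a level, the mark meant a shift of at least its SD over the 4 libraries. Library 2 widens that SD, so the mark does not rank genes by their dependence on library 2. Leaving library 2 out took GNA12 from 95.5 to 131 CPM (SD 55.2) and GNA13 from 97.0 to 123 CPM (SD 35.6). It took GNAI1 from 49.5 to 63.7 CPM (SD 19.1), and these shifts were not marked. GNA11 averaged 47.8 ± 2.14 CPM over 4 libraries, and 48.5 CPM over libraries 1, 3 and 4 on the same scaling. Without library 2 and scaled again, GNA11 averaged 52.4 CPM. The retinal pigment epithelium count was 2 at 2 CPM, in place of 4. Division by coding or transcript length was not run, since no lengths were used here. Depth limits GNAT2 and the rod and cone genes, at 34 counts or fewer per library for most of them.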
